A study of Mus musculus with 6 samples.

Results

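The cytosolic ribosomal protein genes encode the proteins of the 60S and 40S subunits of the cytoplasmic ribosome. They were taken by symbol as the protein-coding mouse genes named Rpl or Rps followed by a digit, or Rplp, leaving out the Rps6k kinases and the pseudogenes whose symbols end in -ps. This gave 85 of the 47729 genes in the deposited count files, 52 with Rpl symbols and 33 with Rps symbols. The rule also takes in Rps19bp1, which is not a ribosomal protein but a nucleolar protein that binds Rps19 and regulates the deacetylase SIRT1, and it leaves out parts of the ribosome that have other names, such as Rpsa, Fau and Rack1.

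Total RNA was sequenced from bone marrow-derived macrophages (BMMs) of WT and Aif1-/- mice, with 3 libraries per genotype. Mice of both genotypes were C57BL/6J, 8 weeks old and male, and the Aif1-/- mice lacked Allograft inflammatory factor 1 in every cell, not in macrophages alone. Cells of both genotypes had been immortalized with SV40 large T antigen, were grown with CSF-1 at 120 ng/ml and 10% FBS, and were used at passages 3 to 5. The animals are described as biologically independent, but whether each is a separately immortalized line is not stated, so the spread between them may be partly technical.

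A ribosome needs most of its proteins in equal numbers, and growing cells devote a large part of their transcription to making them. In mammals the mRNAs of these proteins begin with a C followed by a run of pyrimidines, the 5′ terminal oligopyrimidine (TOP) sequence, through which the mTOR pathway and the RNA-binding protein LARP1 control their translation together. Their levels in the cell are therefore set at the ribosome as well as by the amount of mRNA, and RNA-seq measures the mRNA alone. Each gene has many processed pseudogenes, intronless copies of the mRNA elsewhere in the genome, and many host small nucleolar RNAs (snoRNAs) in their introns.

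The first bases around the transcription start are shown for genes on which the results turn: 4 of the genes that changed between genotypes, the paralog Rpl22l1, a pair with the lowest fold changes among abundant genes (Rplp0 and Rpl41), a pair with the longest pyrimidine runs (Rpl27a and Rpl34), and Rps27 with its intronless retrogene Rps27rt. Each line runs from 30 bases before to 30 bases after the RefSeq start on GRCm38.p6, 5′ to 3′, and the capitals mark the longest run of C and T that begins with a C within 20 bases of that start.
Rpl10a, chr17:28328535-28328594, plus strand: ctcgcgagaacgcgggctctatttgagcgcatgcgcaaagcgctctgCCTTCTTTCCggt
Rps25, chr9:44407684-44407743, plus strand: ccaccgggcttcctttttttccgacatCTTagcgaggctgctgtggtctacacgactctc
Rpl12, chr2:32961682-32961741, plus strand: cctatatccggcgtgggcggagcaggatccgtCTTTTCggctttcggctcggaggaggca
Rpl4, chr9:64173357-64173416, plus strand: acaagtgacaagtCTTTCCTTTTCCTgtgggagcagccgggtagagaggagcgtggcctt
Rpl22l1, chr3:28805478-28805537, plus strand: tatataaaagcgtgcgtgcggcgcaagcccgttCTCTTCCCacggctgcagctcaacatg
Rplp0, chr5:115559437-115559496, plus strand: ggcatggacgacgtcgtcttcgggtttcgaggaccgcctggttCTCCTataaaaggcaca
Rpl41, chr10:128549139-128549198, minus strand: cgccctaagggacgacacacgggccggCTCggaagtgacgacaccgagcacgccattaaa
Rpl27a, chr7:109519165-109519224, plus strand: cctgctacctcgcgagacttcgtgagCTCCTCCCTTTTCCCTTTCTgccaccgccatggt
Rpl34, chr3:130730308-130730367, minus strand: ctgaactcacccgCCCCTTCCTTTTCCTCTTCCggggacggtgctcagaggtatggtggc
Rps27, chr3:90213619-90213678, minus strand: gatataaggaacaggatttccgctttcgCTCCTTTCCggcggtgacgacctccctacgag
Rps27rt, chr9:114982710-114982769, minus strand: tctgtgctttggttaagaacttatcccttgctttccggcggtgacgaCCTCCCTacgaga

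RefSeq windows were found for 65 of the 85 genes. A run of at least 8 pyrimidines beginning with C lay within 20 bases of the start in 31 of the 65 genes (47.7%), compared with 4245 of 27025 genes with a RefSeq window (15.7%). On the other strand such a run was found in 7.69% of the ribosomal protein genes and 18.1% of all genes. The letters TATAAA, searched on the gene's strand from 40 to 15 bases before the start, were in 1.54% of ribosomal protein windows and 2.41% of all windows. The longest runs were 20 bases, in Rpl27a and Rpl34, whereas the longest in Rps25 was 3 bases, with a longer run that begins just outside the searched stretch. Where RefSeq gave several starts for a gene, the one with the longest run was used, for all genes alike, and RefSeq starts need not be the starts used in these cells. The windows of Rps27 and Rps27rt shared an unbroken stretch of 29 bases, which shows how alike the retrogene is to its parent where reads are counted. Of the tested genes, 2 of 31 with a run of at least 8 bases and 2 of 31 with a shorter run passed the test described next, with median log2 fold changes of 0.12 and 0.10. All of these were higher in Aif1-/- BMMs, beside 8.04% of all genes called higher and 18.6% called in either direction.

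Ribosomal protein mRNAs differed little between genotypes. Of the 85 genes, 82 had enough counts to be tested, and 5 of these (6.1%) were higher in Aif1-/- BMMs: Rpl10a, Rps25, Rpl30, Rpl12 and Rpl4, by 0.25 to 0.42 on the log2 scale. None was lower. The test was edgeR's quasi-likelihood test on raw counts, with Benjamini-Hochberg adjustment over the 17406 genes tested and a threshold of 0.05. It called 18.6% of those genes, 8.04% as higher and 10.5% as lower, so the share of ribosomal protein genes called higher was near the background, and the share called lower was under it. At an unadjusted p under 0.05, 14 were higher (17.1%, against 12.9% of all genes) and 0 lower (against 16.3%), and DESeq2 and limma-voom also called 0 lower. Log2 fold changes, Aif1-/- over WT, ran from −0.20 to 0.56, with a median of 0.10 (quartiles 0.01 and 0.19) against −0.004 over all genes tested, and 62 of 82 were above 0 (75.6%, against 49.6% of all genes). No gene reached a change of 1 on this scale, while 1362 of all genes tested did.

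**Figure D1:**
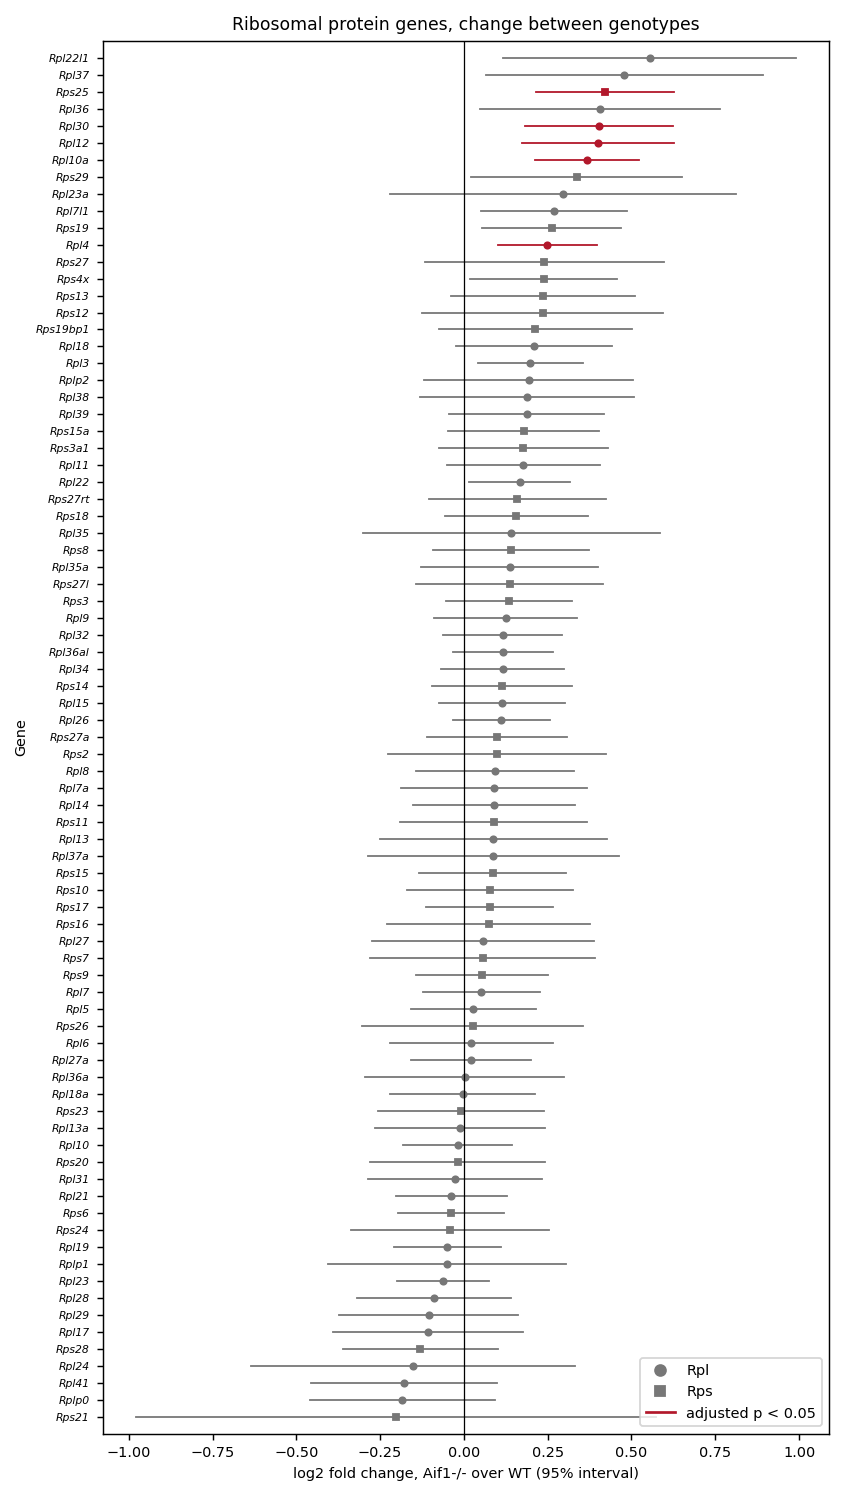
Log2 fold change of 81 of the 82 tested ribosomal protein genes, Aif1-/- over WT (horizontal axis), with its 95% interval, in order of size, circles for Rpl and squares for Rps genes. The 5 red genes passed the adjusted test, all above 0, and most grey intervals cross 0.

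The intervals show how close to equal most levels were. For 70 of the 82 genes (85.4%) the 95% interval of the fold change lay wholly within 1.5-fold in either direction, compared with 51.4% of all genes tested and 74.6% of the 11270 genes in the same range of average expression. The median standard error was 0.11 on the log2 scale, near 0.10 for genes in that range. Large and small subunit genes had like medians, 0.09 over 49 Rpl genes and 0.10 over 33 Rps genes, with 4 and 1 called. Normalized counts of all 3 Aif1-/- libraries lay above all 3 WT libraries for 18 genes (22.0%, background 16.5%) and below them for 1 gene, Rpl23 (1.22%, background 19.1%).

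Rpl10a, the protein of the mobile L1 stalk of the 60S subunit, had the smallest adjusted p. It lies on chromosome 17 (28328471 to 28331033, GRCm38). Its normalized counts were 1084, 1031 and 1122 in WT libraries 1, 2 and 3, and 1368, 1397 and 1413 in Aif1-/- libraries 1, 2 and 3. All Aif1-/- values exceeded all WT values, and both groups were tight (1079 ± 45.9 and 1393 ± 22.7, SD, n = 3). The log2 fold change was 0.37 with a standard error of 0.07 and an adjusted p of 0.00396 by edgeR.

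Rps25, a 40S protein at the head that internal ribosome entry sites depend on, lies on chromosome 9 (44407139 to 44410427). Its normalized counts were 903.9, 770.4 and 935.6 in WT and 1215, 1180.0 and 1097 in Aif1-/- BMMs, without overlap. It had the largest log2 fold change among the called genes, 0.42 ± 0.09 (SE), with an adjusted p of 0.00892 by edgeR.

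Rpl30, a 60S protein that in yeast binds and represses its own transcript, lies on chromosome 15 (34440505 to 34443640). WT libraries had normalized counts of 765.2, 639.7 and 745.6, and Aif1-/- libraries had 1037, 904.3 and 898.0. The groups did not overlap, and the log2 fold change was 0.40 ± 0.10 (SE; adjusted p = 0.0166, edgeR).

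Rpl12 forms the base of the P stalk, the lateral arm of the 60S subunit that recruits translation factors, and lies on chromosome 2 (32961559 to 32965345). Its normalized counts were 360.0, 349.6 and 394.3 in WT and 456.6, 503.4 and 499.0 in Aif1-/- BMMs. These did not overlap, with a log2 fold change of 0.40 ± 0.10 (SE; adjusted p = 0.0197, edgeR).

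Rpl4, whose long extension lines the peptide exit tunnel, was by far the most abundant of the 5 and lies on chromosome 9 (64173375 to 64178666). Its normalized counts were 7857, 6969 and 7519 in WT, and 8987, 8795 and 8768 in Aif1-/- BMMs. The groups did not overlap, although the difference was the smallest of the 5 (log2 fold change 0.25 ± 0.07, SE; adjusted p = 0.0246, edgeR). None of the 5 passed a test against a fold of 1.2.

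**Figure D2:**
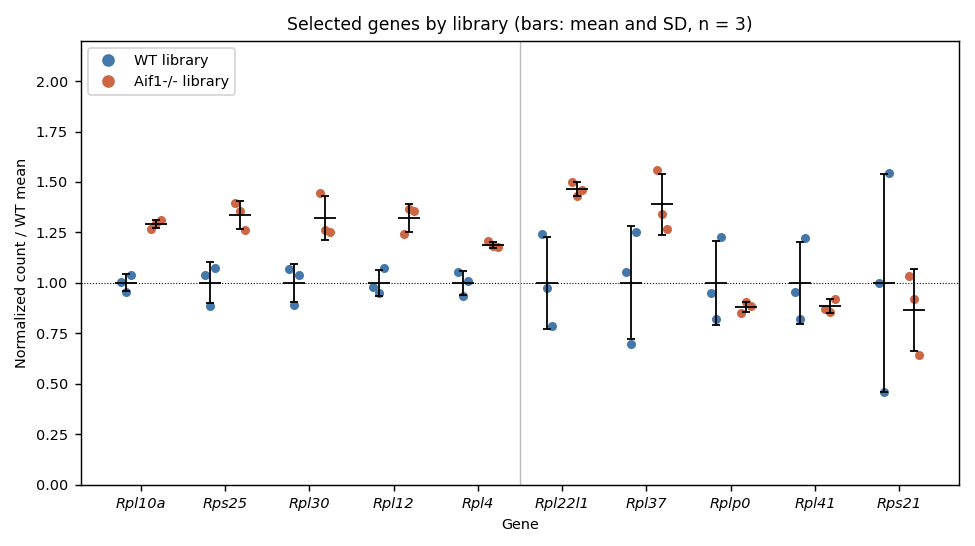
Normalized counts of 10 genes divided by each gene's WT mean (vertical axis, linear), 3 WT and 3 Aif1-/- libraries per gene, with the mean and SD. Left of the grey line are the 5 called genes, whose genotypes do not overlap, and right of it are 5 that were not called, where WT libraries spread more widely than Aif1-/- libraries.

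The order of the remaining changes shows what the test left out. Rpl22l1 had the largest fold change of all, 0.55 ± 0.20 (SE), yet an adjusted p of 0.0817 by edgeR. It encodes a paralog that can take the place of Rpl22, and its normalized counts were low: 117.6, 92.5 and 74.3 in WT and 142.2, 135.8 and 138.3 in Aif1-/- BMMs. Rpl37, next in size at 0.48 ± 0.19, had 471.6, 313.1 and 560.7 against 699.5, 602.0 and 568.8, with an adjusted p of 0.111 by edgeR. Both kept the genotypes apart, but only narrowly for Rpl37. At the other end, Rps21 had a fold change of −0.20 with the widest spread between libraries of 1 genotype among all tested members, from 246.1 to 825.0 in WT and from 342.3 to 553.8 in Aif1-/- BMMs. Rpl23a, at the mouth of the exit tunnel, and Rpl24, of a bridge between the subunits, were next in spread. For these 3 genes the 95% intervals held changes in either direction.

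The genes of the P stalk did not share a sign. Besides Rpl12 it holds Rplp0, the scaffold, and Rplp1 and Rplp2, whose acidic tails contact the elongation factors. Rplp0 had normalized counts of 7379, 6375 and 9531 in WT libraries, and those of Aif1-/- were 6609, 7023 and 6863 (log2 fold change −0.18 ± 0.12, SE; adjusted p = 0.383, edgeR). Rplp1 had 4082, 3553 and 6042 against 4377, 4448 and 4395 (−0.05 ± 0.16, SE). Rplp2 had 694.8, 515.0 and 737.2 against 834.6, 667.2 and 717.6 (0.19 ± 0.14, SE). The Aif1-/- values fell inside the WT range except for library 1 in Rplp2, and WT library 3 was far above the other WT libraries for Rplp0 and Rplp1. Without that library the Rplp1 estimate turned to 0.21 and Rplp1 was called higher, while the Rplp0 estimate was −0.004. Without WT library 2, by contrast, Rplp0 was called lower, at −0.30.

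Other groups by place in the ribosome gave few or no calls, to be read beside 18.6% of all genes called, and 12.9% higher and 16.3% lower at an unadjusted p under 0.05. Rpl5 and Rpl11, which with 5S rRNA form the particle that restrains the p53 ligase Mdm2, had fold changes of 0.03 and 0.18, and neither passed, adjusted or unadjusted. Of 9 genes at the peptide exit tunnel, Rpl4 alone was called (median 0.14). Of 8 genes around the mRNA entry and the 40S head, 0 were called by edgeR, DESeq2 or limma-voom, with 2 higher at an unadjusted p under 0.05, and of 10 genes of the early assembling 40S body, 0 were called by these tools, with 1 higher unadjusted. Rps25 was not on either list. The 19 genes whose loss of 1 copy causes Diamond-Blackfan anaemia in humans, in which red cell precursors fail, also gave 0 calls by the 3 tools, with 2 higher unadjusted. Among the latter, Rps19, the gene most often mutated in that disease, had 622.4, 579.5 and 694.1 in WT and 728.7, 776.4 and 770.3 in Aif1-/- BMMs, which did not overlap (0.26 ± 0.09, SE; adjusted p = 0.0838, edgeR).

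Most ribosomal proteins occur once per ribosome, whereas Rplp1 and Rplp2 are present as repeated copies. Levels of single genes spanned a wide range. In CPM (gene counts scaled to a common library size) per kilobase of mRNA, tested genes ran from 5.15 to 411.1 in WT (median 62.7) and from 5.63 to 438.5 in Aif1-/- BMMs (median 70.6). The 5 highest over both genotypes were Rpl8, Rplp1, Rps9, Rps15 and Rpl32. Rpl8 stood at 411.1 ± 70.04 in WT and 438.5 ± 4.08 in Aif1-/- BMMs (SD, n = 3), and Rplp1 at 388.9 ± 111.8 and 375.9 ± 3.15. The gap between these neighbours was smaller than either SD in WT, but larger than either SD in Aif1-/- BMMs. Rps9, Rps15 and Rpl32 stood at 273.3 ± 33.6, 253.8 ± 37.5 and 238.7 ± 22.7 in WT, where gaps between neighbours were again smaller than the SDs. In Aif1-/- BMMs they stood at 283.7 ± 4.62, 269.3 ± 5.99 and 258.6 ± 6.31, with gaps larger than the SDs. The WT SD includes a shift between libraries that most members shared, so it cannot settle the order of genes within those libraries. That order was not tested library by library. In WT alone Rplp0 (243.3 ± 50.5) and Rpl41 (241.9 ± 49.4) lay between Rps15 and Rpl32. The 5 lowest were Rpl35, Rpl23a, Rpl22l1, Rpl24 and Rps15a, between 5.15 and 11.0 in WT, where the transcript used for Rps15a was long, 5130 bases. These levels hold only the reads that were assigned to the gene itself, and the counting of copies bears directly on them.

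Reads of ribosomal protein mRNAs were split between the genes and their pseudogene copies. Each read had been placed at 1 location at most, and a median of 48.0% of the 75-base windows along a member's mRNA also occurred in another annotated gene. Alignment found 1299 annotated pseudogene copies of 81 members, 954 of them with counts. In WT libraries 1, 2 and 3 the members held 0.566%, 0.503% and 0.601% of all gene counts, and in Aif1-/- libraries 0.598%, 0.594% and 0.591%. Their copies held more, 0.805% to 0.930% in WT and 0.924% to 0.952% in Aif1-/- BMMs. The copies' part of the joint counts was alike in all 6 libraries, between 60.7% and 61.7%.

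For 59 of the 83 members with any count, the copies together held more counts than the member. The median member kept 32.6% of the joint counts. Rpl23a kept 2.42%, with 725 counts against 29288 in its 45 copies, and Rpl12 kept 6.97%, with 2511 counts against 33498. Rps3, which shares no 75-base window with another gene, kept 95.8%. The copy with most counts, Gm9794, matches the mRNA of Rpl23 over 423 bases at 99.8% identity and had 24484 counts over the 6 libraries, more than the 13772 of Rpl23. The low place of Rpl35, Rpl23a and Rpl24 in the order of levels thus belongs to genes that kept 8.997%, 2.42% and 6.99% of their joint counts. Rps27 and Rps27rt share most of their windows (98.5% and 90.3%), and their reads cannot be told apart well.

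When the pseudogenes named -ps alone were added to their parents, 4 of 82 genes were higher and 0 lower, against 8.16% and 10.6% of all genes in that table. Rpl12 was called at 0.41, Rpl30 was no longer called (0.27), and Rpl22l1 and Rpl37 were not called (0.56 and 0.48). When all of each member's aligned copies were added to it, an alternative chosen after seeing the data, 5 of 82 genes were again higher and 0 lower, against 8.37% of genes called higher in that table. They were Rpl10a, Rps25, Rpl4, Rpl22l1 and Rpl37. Rpl12 went from a log2 fold change of 0.40 to 0.20 (adjusted p = 0.0833, edgeR) and Rpl30 from 0.40 to 0.22 (adjusted p = 0.101, edgeR). Rpl22l1 went up to 0.77 ± 0.13 (SE; adjusted p = 0.00186, edgeR). Its copy Gm15421, which matches it at 98.7% identity, was higher itself, with raw counts of 155, 142 and 177 in WT and 331, 179 and 200 in Aif1-/- libraries (0.90, adjusted p = 0.00194, edgeR). Of 586 copies tested alone, 7 were higher and 2 lower, against 8.04% and 10.5% of all genes tested. Among those called, Rpl9-ps8 and Gm11869 (higher) had enough counts to be tested only through the Aif1-/- libraries. Gm13246 (lower) had enough only through the WT libraries. The median log2 fold change of the copies was 0.09, near that of the members. Rpl10a, Rps25 and Rpl4 were called with and without their copies. With the copies added, Rps21 had a fold change of −0.001 ± 0.15 (SE).

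**Figure D3:**
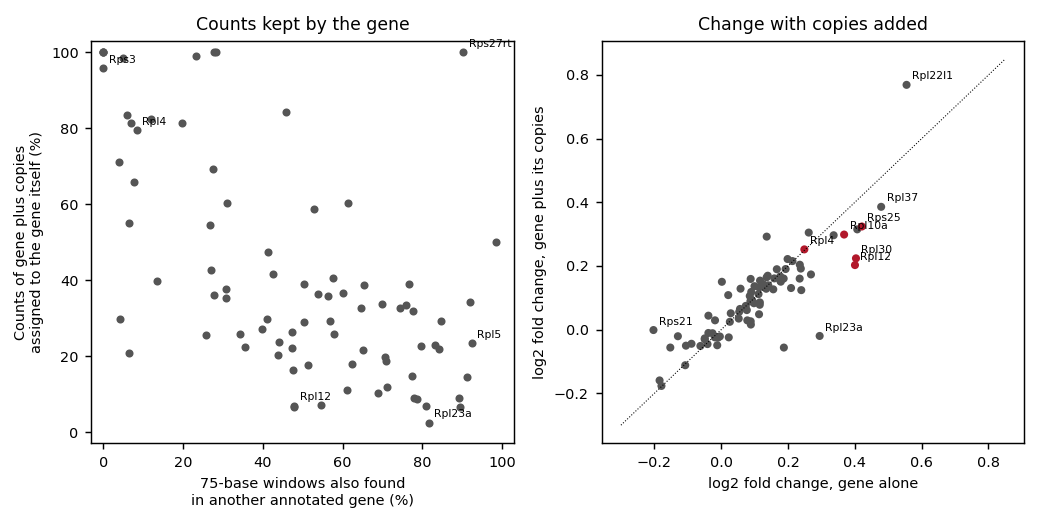
Left, the share of the counts of each gene and its copies that was assigned to the gene itself (vertical axis, percent) against the share of its 75-base windows found in another annotated gene (horizontal axis, percent), for 83 genes. Right, the log2 fold change with copies added against that of the gene alone, with the 5 called genes in red and a dotted line of equality, above which Rpl22l1 lies and below which Rpl12 and Rpl30 lie.

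The WT libraries differed more among themselves than the Aif1-/- libraries did. The median over members of the SD of log2 CPM was 0.21 in WT and 0.05 in Aif1-/- BMMs, against 0.20 and 0.09 over all genes tested. WT library 2 was the lowest of the 6 for 74 of the 82 members (90.2%), though for 23.6% of all genes, and WT library 3 was the highest for 37 members (45.1%), against 27.4% of all genes. Relative to each gene's WT mean, the median member stood at 0.04, −0.19 and 0.18 on the log2 scale in WT libraries 1, 2 and 3, and at 0.12, 0.13 and 0.10 in the Aif1-/- libraries. The Aif1-/- libraries thus lay between the extremes of WT.

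Reads that matched no gene moved with this order in WT. They made up 32.4%, 40.4% and 25.5% of counted reads in WT libraries 1, 2 and 3 and 33.6%, 33.6% and 35.7% in the Aif1-/- libraries, so the WT library with most such reads had the lowest ribosomal protein counts and the one with fewest had the highest. Without WT library 3, 29 members were higher (35.4%) and 0 lower (median 0.21), against 13.6% and 14.0% of all genes. Without WT library 2, 5 were higher and 1 lower (median 0.01), against 10.1% and 12.3% of all genes. With the share of such reads as a covariate, 31 were higher (37.8%) and 0 lower (median 0.15), against 15.4% and 16.3% of all genes. The median over the whole set thus moved by more than its main value with the treatment of these WT libraries.

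**Figure D4:**
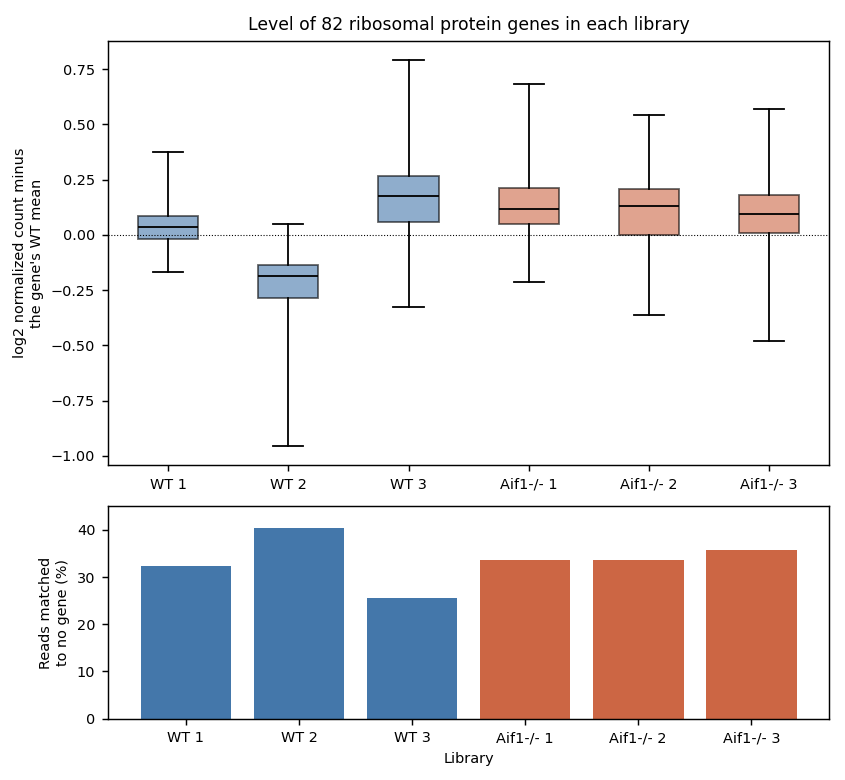
Top, log2 normalized count of the 82 tested genes minus each gene's WT mean, by library (box: quartiles and median, whiskers: full range). Bottom, reads matched to no gene as a percent of counted reads in the same libraries. WT 2 has the lowest box and the tallest bar, WT 3 the highest median and the shortest bar, and the 3 Aif1-/- libraries sit close together.

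Some ribosomal proteins have paralogs encoded by another gene, and the ratio of both within a library does not depend on library size. The log2 ratio of Rpl22l1 to Rpl22 counts was −3.99, −4.23 and −4.65 in WT and −3.88, −3.93 and −3.82 in Aif1-/- BMMs, higher by 0.41 and without overlap. The ratio of Rpl7l1, a relative of Rpl7 that acts in 60S assembly, to Rpl7 was −0.40, −0.47 and −0.33 in WT and −0.25, −0.13 and −0.15 in Aif1-/- BMMs, higher by 0.22 and also without overlap. The ratio of Rps27l, a p53-responsive paralog, to Rps27 was 1.93, 2.03 and 2.0 in WT and 1.90, 1.84 and 1.90 in Aif1-/- BMMs, lower by 0.10 and narrowly without overlap. Alone, the log2 fold change was 0.14 ± 0.13 (SE) for Rps27l and 0.24 ± 0.16 for Rps27. With all aligned copies added, it was 0.16 ± 0.11 and 0.12 ± 0.10, in the reverse order but within the standard errors. The part of read assignment in this ratio was not tested.

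Two-sided exact permutation tests gave p = 0.1 for each of these 3 pairs, the smallest value that 3 against 3 libraries allow, so no ratio could pass 0.05, and adjustment over the 5 pairs compared leaves none nearer to it. The ratios of Rpl36al to Rpl36a and of Rps27rt to Rps27 overlapped between genotypes (exact permutation p = 0.5 for both), with differences of 0.11 and −0.08. Rpl10l and Rpl39l, whose expression is known from the male germline, had 0 counts in all 6 libraries, and Rpl3l, a paralog of striated muscle, had 2.55 to 10.1 normalized counts. None of the 5 paralogs tested alone was called by edgeR, DESeq2 or limma-voom, and 2 were higher at an unadjusted p under 0.05. By edgeR, 18.6% of all genes were called, and 12.9% were higher at an unadjusted p under 0.05.

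**Figure D5:**
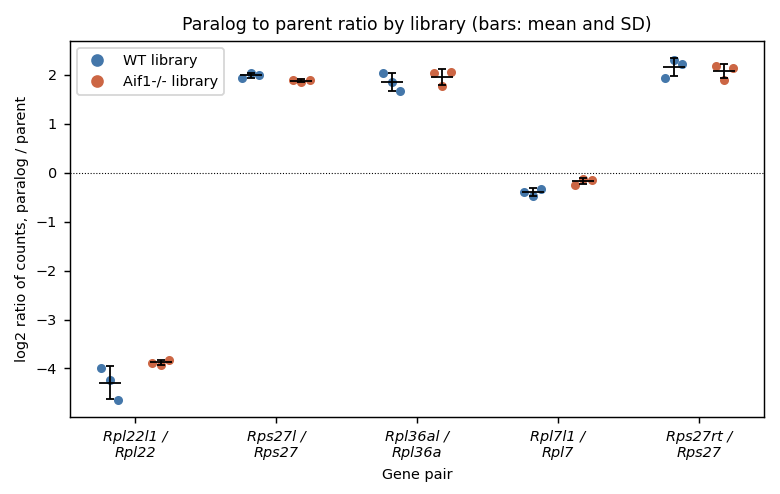
Log2 ratio of raw counts of a paralog to its parent gene (vertical axis) in each library, with the mean and SD of 3 libraries, for 5 pairs. Genotypes do not overlap for Rpl22l1 / Rpl22, Rpl7l1 / Rpl7 and Rps27l / Rps27, and the shifts are small beside the distances between pairs.

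Aif1 itself had raw counts of 220, 157 and 239 in WT and 4, 4 and 1 in Aif1-/- libraries, in accord with the labels. It lies on chromosome 17, which also carries 4 members within 10 Mb: Rps18 at 1.22 Mb, Rps28 at 1.35 Mb, Rpl10a at 6.84 Mb and Rps10 at 7.54 Mb. Of these only Rpl10a was called, while Rps18, Rps28 and Rps10 had log2 fold changes of 0.16, −0.13 and 0.08. Genes on the other strand overlapped 24 of the 82 tested members, 4 of which were called (16.7%, against 18.6% of all genes in either direction and 8.04% as higher). Of the 58 others 1 was called, Rpl4 (1.72%, against 7.96% higher and 10.8% lower among all genes with no gene on the other strand). Lrsam1, which overlaps 56 bases of Rpl12, had a fold change of −0.19, and Trappc4 and Ccdc84, which overlap Rps25, had −0.19 and −0.23. All were opposite in sign to the member and none was called. Rpl10a and Rpl30, also called, each have a gene on the other strand as well, and no values are given here for those genes.

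Other genes of the ribosome's supply moved in part. Of 29 ribosome assembly factors tested, 5 were higher and 1 lower, namely Heatr1 (0.34), Tsr1 (0.44), Nmd3 (0.34), Bysl (0.44) and Dkc1 (0.33) against Sbds (−0.28), which releases eIF6 from the 60S subunit. Of 15 genes of the RNA polymerase I machinery, which makes ribosomal RNA, 3 were higher: the largest subunit gene Polr1a (0.33) and the subunit genes Cd3eap (0.43) and Znrd1 (0.45). Among 14 regulators of ribosomal protein output, Myc, a transcription factor that drives ribosome production, was higher by 0.92 ± 0.08 (SE; adjusted p = 2.7e-05, edgeR), from 958.6 ± 89.0 to 1815 ± 66.1 normalized counts (SD, n = 3). Rrbp1, a ribosome-binding protein of the endoplasmic reticulum, was also higher (0.43), and Tsc1, a brake on mTOR complex 1, was lower (−0.38). These calls amount to 6 of 29, 3 of 15 and 3 of 14 genes, beside 18.6% of all genes, 8.04% called higher and 10.5% lower. At an unadjusted p under 0.05 by edgeR, 13 of the 29 assembly factors were higher and 1 lower. For the polymerase genes these counts were 4 and 2 of 15, and for the regulators 4 and 2 of 14. Of all genes, 12.9% were higher and 16.3% lower at that threshold.

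The counts that follow also stand beside 8.04% of all genes called higher and 10.5% called lower. Of 17 other mRNAs with a TOP start, Hnrnpa1 (0.35) and Eif3e (0.29) were higher and Vim, the intermediate filament vimentin, was lower (−0.59). Among 7 tested noncoding snoRNA hosts, Zfas1 was lower (−0.55) and the other 6 were not called. Of 56 snoRNA genes inside members, 15 were tested and Snora78 alone was called, as higher (2.24), from 4.94 ± 2.82 to 23.1 ± 3.86 normalized counts (SD, n = 3). Snora78 had raw counts of 8, 5 and 3 in WT and 29, 14 and 19 in Aif1-/- libraries. It had enough counts to be tested only through the Aif1-/- libraries, so its fold change is a ratio to a low level. For the separate ribosome of mitochondria, 2 of 77 genes were higher (Mrpl52, 1.06, and Mrps28, 0.45) and 4 lower (Mrpl45, Mrpl41, Mrpl35 and Mrpl55, −0.44 to −0.31), with a median of −0.04.

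The cells carried macrophage markers throughout. Markers of macrophages summed to 3699.7 to 4501.3 CPM in WT and 5349.6 to 5450.6 in Aif1-/- BMMs, and 6 of 10 were higher in Aif1-/- BMMs, against 8.04% of all genes (Csf1r by 0.48, Lyz2 by 0.75, Mertk by 0.82, Adgre1, Itgam and Fcgr1 by 0.40 to 0.41), whereas Cd14 was lower (−0.40). Markers of granulocytes, fibroblasts, erythroid cells, T and NK cells and B cells summed to 1.07 CPM or less in every library for each list, and 4, 2, 2, 2 and 2 of their genes were at 0 in all libraries. Dendritic cell markers summed to 2.05 to 4.43. Of 4 tested platelet markers, Pf4, Treml1 and Ppbp were higher (0.97, 1.94 and 4.41), whereas Itga2b, the fourth, had −0.49 (adjusted p = 0.606, edgeR). Ppbp had raw counts of 3, 0 and 0 in WT and 18, 13 and 25 in Aif1-/- libraries. It had enough counts to be tested only through the Aif1-/- libraries, so its fold change is a ratio to a level near 0. Gp1bb, not tested, had 0 counts in every library. The sum of that list was 39.7 to 44.6 in WT and 85.2 to 89.1 in Aif1-/- BMMs. The part of these shifts in the ribosomal protein results was not tested, and in bulk RNA a change in the mix of cells cannot be told apart from a change within cells.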

How the data were processed

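RNA-seq libraries from 6 cultures were analysed, 3 per genotype, each assigned by its label. Per the labels and the methods, the authors depleted ribosomal RNA, used Trim Galore 0.5 for trimming, TopHat2 2.0.13 for alignment to GRCm38 (1 location per read at most) and HTSeq 0.6.1p1 for counting. The deposited values are raw counts per Ensembl gene, 17707986 to 29314253 per library, and this depth sets the precision. Rows that name no gene were left out of library sizes and tests (reads matched to no gene, 25.5% to 40.4%, and ambiguous reads, 4.55% to 7.15%). How the counting treated strand is stated only as default settings, so genes overlapping on the other strand are uncertain. The series text names the knockout Aif1l-/- where the sample labels say Aif1-/-.

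Symbols and coordinates came from GENCODE M21, which matched 47310 of 47729 genes. Counts were tested with edgeR 4.0.16 (R 4.3.3, limma 3.58.1) under TMM normalization and its default filter. Standard errors were obtained from the fold change and the F value of the test. Normalized counts were brought to the size of an average library, and a prior of 2 counts entered log2 CPM. Copies were annotated pseudogenes aligned to a member's mRNA over at least 100 bases at 80% identity or more, each given to 1 member. The test was first run on simulated counts with known changes. Alternatives were DESeq2 1.42.0, limma-voom, other scalings and filters, each library left out, a covariate, thinning to the smallest library, and pseudogene counts added.

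The members and gene lists were chosen with earlier results of these data known. Genes named are those called, the 5 highest and 5 lowest per kilobase, those not tested, the paralogs, the P stalk and 5S RNP genes, those within 10 Mb of Aif1, the 3 of widest spread, and up to 4 called genes of each other list. Rpl37, Rpl41, Rps19, Rpl23 and further genes outside these were named after their values were seen. Some items are not reported here singly.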

Additional observations from a re-analysis of the deposited data

How the results depend on the processing

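The number of ribosomal protein genes higher in Aif1-/- BMMs was 5 with edgeR, and the same 5 genes with DESeq2, limma-voom, RLE factors, TMM without ribosomal protein genes and copies, and the stricter filter. It was 7 with upper-quartile factors (3332 of all genes called, against 3231 in the main fit), 7 with library totals only (3315) and 6 after thinning (3175). It was 9 without a filter (3540), 31 when reads outside genes entered as a covariate (5521) and 0 in the test against a fold of 1.2 (1846). Among genes with no gene on the other strand it was 1 (1850 of all genes), a set that leaves out 4 of the 5 by construction. Leaving out 1 library at a time gave 1 to 29 higher, 0 to 1 lower and 2040 to 4889 genes called overall. The fewest were called without Aif1-/- library 1 (1 higher), library 2 (2 higher) and library 3 (3 higher), and the most without WT library 3. Rplp1, at −0.049, ran from −0.197 without WT library 2 to 0.213 without WT library 3. The median log2 fold change ranged from 0.013 to 0.212. The difference in share of gene counts, Aif1-/- minus WT, was 0.0375 percentage points for the members (0.557% ± 0.0495 and 0.594% ± 0.00356, SD, n = 3) and 0.0907 with all aligned copies, an alternative added after seeing the data. The cause of these differences was not tested except where stated. The labels do not say whether replicate numbers pair the samples. Deviations from the genotype means had correlations of 0.060, −0.075 and −0.086 between same-numbered libraries, which cannot settle it with 3 libraries per genotype. A replicate block gave the same count of 5 higher and 0 lower, with 2872 of all genes called. For 20 named genes, 370 of 409 refitted changes kept their direction and side of the threshold. With 3 libraries per genotype, the median standard error of 0.108 on the log2 scale limits what could be called.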
